A study of Solanum lycopersicum with 4 samples.

Results

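The genes described here encode the light-harvesting chlorophyll a/b-binding proteins and the small subunit of Rubisco in tomato (Solanum lycopersicum). They were taken from a fixed list of 31 gene IDs, of which 30 were among the 33976 genes of the tables, 27 of them light-harvesting and 3 Rubisco small subunit; the remaining ID, Solyc05g056070, was not analysed here. RNA was sequenced from floral apices and closed flower buds of 156OE, which is MT overexpressing miR156, and of MT itself, a name commonly used for the dwarf tomato Micro-Tom. There were 2 libraries of each genotype. The promoter of the transgene, the number of independent lines and the age of the plants are not stated in the labels. The labels speak of RNA replicates without saying whether these are separate plants, and p-values therefore rest on a spread between samples that may be technical.

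Light-harvesting proteins bind chlorophyll and carotenoids in the thylakoid membrane and pass the captured energy to the photosystem reaction centres. The major trimeric antenna, LHCII, and the minor monomeric proteins CP24, CP26 and CP29 serve photosystem II, and a separate set serves photosystem I. Rubisco fixes carbon dioxide in the Calvin cycle; its large subunit is encoded in the plastid and its small subunit by a nuclear gene family. Both families are classic light-induced nuclear genes, strongly expressed in green tissue, and young sepals and closed buds are green. miR156 lowers transcripts of SBP-box transcription factors and is best known for prolonging the juvenile phase of shoots.

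The 156OE libraries held 8440384 and 1685657 assigned reads, and the MT libraries 11203505 and 9369713. 156OE replicate 2 thus had the lowest depth, where the floor of 3 reads stands at 1.78 CPM (reads per 1000000 assigned). The 156OE replicates were also less alike than the MT replicates, with correlations of log2(CPM + 1) across 18454 genes of 0.923 and 0.991. Counts differed by more than sampling noise within both pairs, where chi-square divided by its degrees of freedom was 21.2 in 156OE and 4.12 in MT. Floral and meristem markers were read in every library: the SEPALLATA-type gene TM5 (Solyc05g015750) was at 100.4 and 35.4 TPM in 156OE and at 62.1 and 68.5 TPM in MT, and the meristem gene TKN2 (Solyc02g081120) at 122.9 and 90.6 TPM in 156OE and at 88.9 and 109.5 TPM in MT. The pollen gene LAT52 (Solyc10g007270) had no read in 3 libraries and 1 read in MT replicate 2. The pollen-expressed gene LAT56 (Solyc03g058910) had 1.22 and 0.848 TPM in 156OE (14 and 2 reads) and 4.71 and 3.55 TPM in MT (69 and 43 reads), with both 156OE libraries below MT and a log2 change of -1.76 that did not pass over all genes (edgeR adjusted p = 0.302).

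All 30 genes passed the low-count filter, and none passed the test of 156OE against MT. In edgeR's quasi-likelihood test, adjusted over 18385 genes, 0 of 30 had an adjusted p under 0.05, where the background was 0.00544% (1 gene) higher and 0 genes lower in 156OE. The lowest adjusted p among them was 0.264. DESeq2 also called 0 of 30 (lowest adjusted p = 0.0896), against a background of 0.685% higher and 0.295% lower. At an unadjusted p under 0.05, edgeR placed 5 of 30 higher in 156OE and 0 lower, against 6.28% and 5.11% of all genes. The members counted there were 3 low-level IDs of the Cab-1 cluster, RBCS3 and Solyc03g034220. The median log2 change over the 30 genes was 0.11, and over all genes tested it was 0.01. The median over the 30 genes was -0.16 without 156OE replicate 1, 0.35 without 156OE replicate 2 and -0.12 with limma on log2(TPM + 1), so its direction rests on which 156OE library and which scale is used.

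The absence of calls came with wide intervals. The 156OE libraries lay far apart for most of these genes, and some genes with wide intervals had few reads in 156OE replicate 2. The largest standard error was that of Solyc02g070990, with 2 reads there. The part of each in the widths was not tested. Standard errors of the log2 changes ran between 0.12 and 0.66. For 15 of the 30 genes the 95% interval of the log2 change stayed within -1 to 1, that is within 2-fold, and for the other 15 it reached further.

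**Figure D1:**
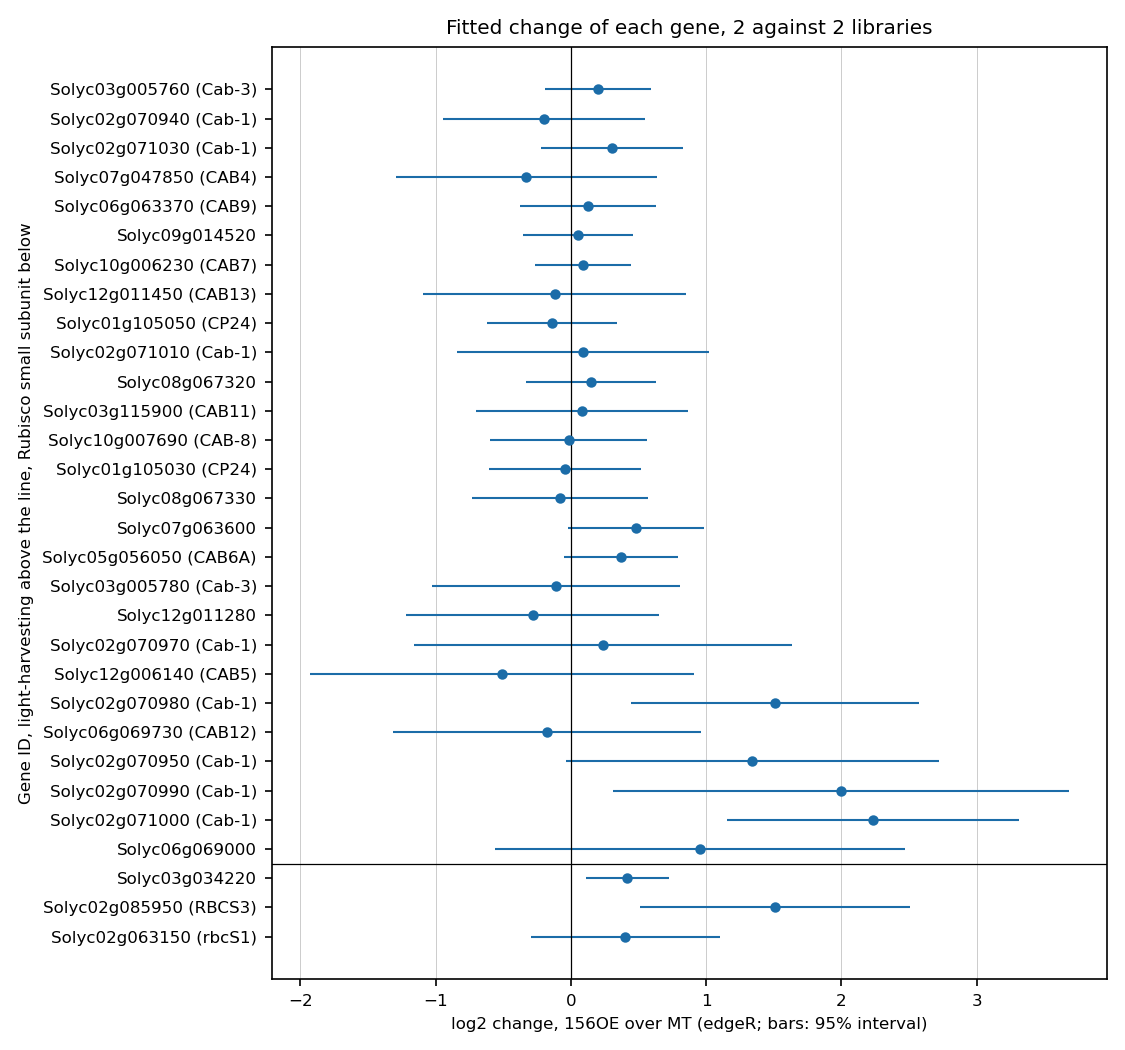
Fitted log2 change of each gene in 156OE over MT (x axis, edgeR) with its 95% interval, for 27 light-harvesting genes above the line and 3 Rubisco small subunit genes below it. Most points lie close to 0; the low-level Cab-1 IDs, with wide intervals, and RBCS3, at 1.51, lie furthest to the right.

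The light-harvesting transcripts were split between the 156OE libraries: most were above MT in replicate 1 and below MT in replicate 2. Summed over the 27 genes they made 7892 and 4575 TPM in 156OE replicates 1 and 2 and 6291 and 7066 TPM in MT replicates 1 and 2, where TPM is a length-scaled abundance per 1000000 transcripts. The 156OE libraries lay on either side of the MT pair, so the groups overlapped. The 3 Rubisco small subunit genes summed to 1676 and 1730 TPM in 156OE and to 1182 and 1232 TPM in MT, with no overlap of the groups. The smallest p that an exact permutation test allows with 2 libraries a side is 0.333, and these sums were not tested.

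TPM of most genes were lower in the 156OE libraries, with a median ratio to the MT mean over all tested genes of 0.953 in replicate 1 and 0.806 in replicate 2. TMM scaling leaves out the genes of most extreme ratio or level when it sets the scale of each library. After it these medians were 0.999 and 0.987, and comparisons between libraries below use TMM-scaled CPM where scaled values are named. On that scale 156OE replicate 1 lay above both MT libraries in 26 of 27 light-harvesting genes, where 38.7% of all genes did. 156OE replicate 2 lay below both MT libraries in 18 of the 27, where 44.6% of all genes did. These 2 counts share the MT libraries. Replicate 2 was below replicate 1 in 26 of the 27, and in 51.6% of all genes. The median light-harvesting ratio to the MT mean was 1.23 in 156OE replicate 1 and 0.758 in replicate 2.

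Both 156OE libraries lay above both MT libraries in 8 of the 30 genes on the scaled values (6 light-harvesting, 2 Rubisco small subunit), close to the background of 22.7%, and both lay below in 0 of 30, where the background was 23.8%. On unscaled TPM the counts were 5 above and 1 below, against 11.6% and 38.5% of all genes.

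**Figure D2:**
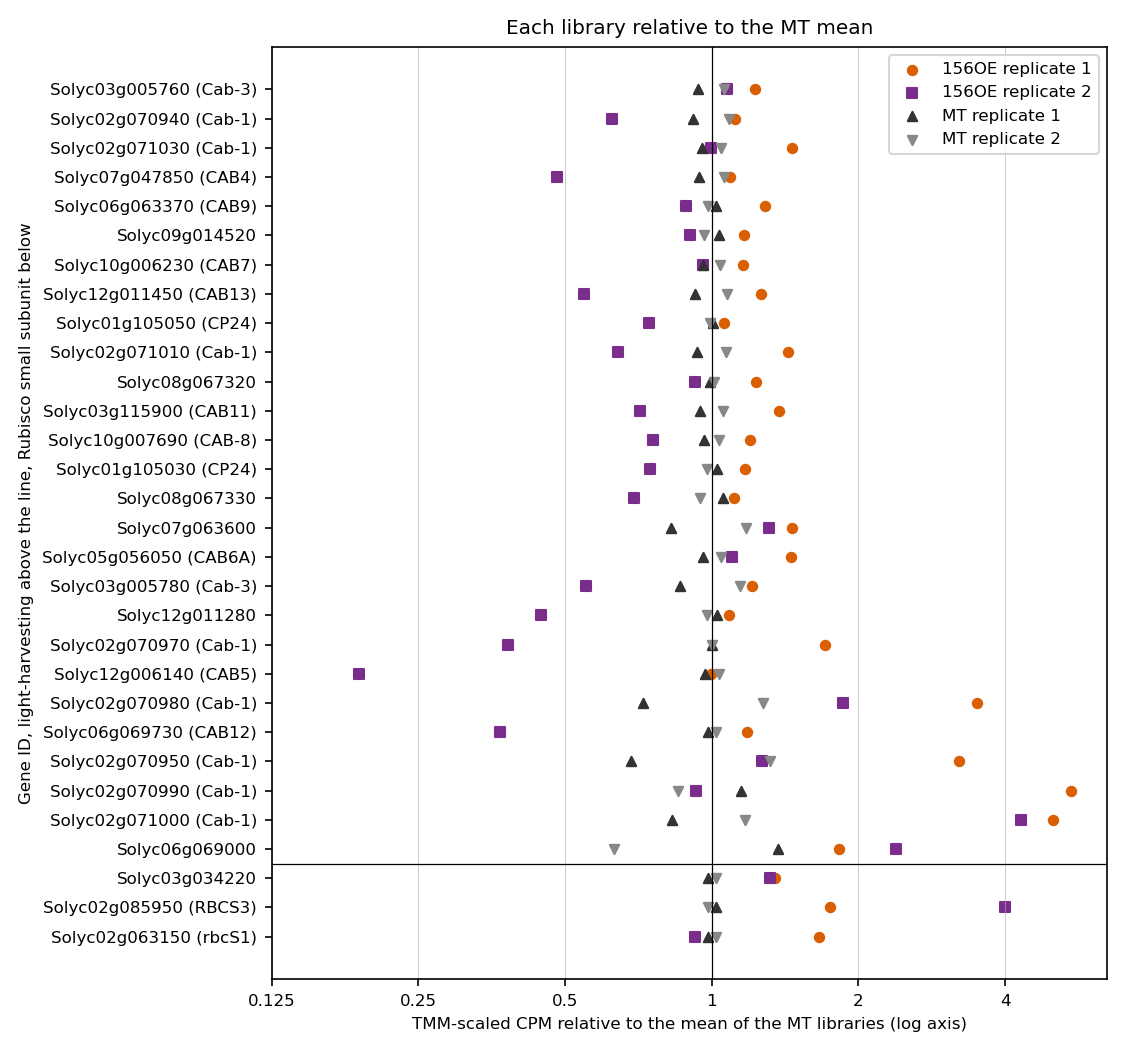
TMM-scaled CPM of each gene in each of the 4 libraries, divided by the mean of the MT libraries (x axis, log scale). Circles of 156OE replicate 1 lie right of 1 for 29 of the 30 genes, squares of 156OE replicate 2 lie left of 1 for most light-harvesting genes, and RBCS3 has its highest value, 4.00, in 156OE replicate 2.

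As a list, floral organ identity genes were split in the same way, and the meristem list was not in its scaled medians. The 5 floral organ identity genes with a checked symbol, a list set with earlier results known, summed to 271.9 and 105.5 TPM in 156OE replicates 1 and 2 and to 192.2 and 197.6 TPM in MT, with median scaled ratios of 1.61 and 0.614. The C-class gene TAG1 (Solyc02g071730) of this list had 5 reads in 156OE replicate 2. The 5 shoot and floral meristem genes summed to 258.3 and 206.7 TPM in 156OE and to 227.5 and 247.9 TPM in MT. These TPM sums lay on either side of MT, while the median scaled ratios were 0.977 and 1.10. Single genes of both lists differed from their list. On scaled values both 156OE libraries were above MT for TM6 (Solyc02g084630) of the floral list and for TKN2 of the meristem list. Both were below MT for CLV1 (Solyc04g081590) of the meristem list. None of either list passed edgeR's test. LAT56 was below MT in both 156OE libraries. The part of depth and of tissue make-up in these values was not tested, and in bulk samples fewer green cells and less RNA per cell cannot be told apart.

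Levels covered more than 3 orders of magnitude, and their order hardly differed between libraries. Across the 30 genes, which share each library, Spearman's rho of TPM was 0.963 between the 156OE libraries, 0.997 between the MT libraries and between 0.949 and 0.989 between genotypes. Mean TPM over the 4 libraries was 100 or more in 19 genes and under 10 in 4. The light-harvesting genes together made 0.789% and 0.458% of all TPM in the 156OE libraries and 0.629% and 0.707% in the MT libraries.

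**Figure D3:**
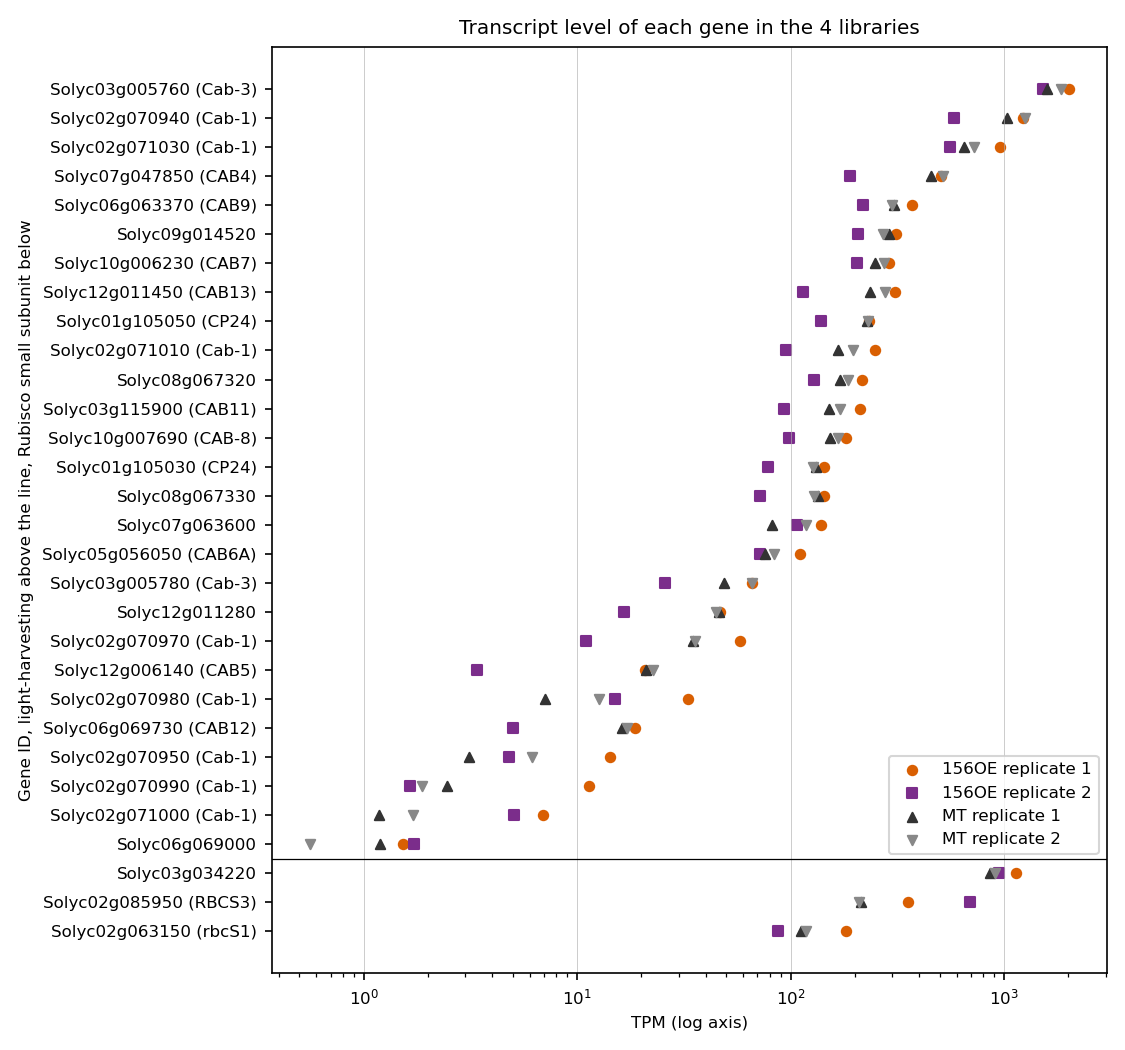
TPM of each gene in each of the 4 libraries (x axis, log scale), ordered by mean level within each family. Solyc03g005760 of the Cab-3 locus is highest in all 4 libraries, and the 5 light-harvesting IDs at the bottom lie under 20 TPM in every library.

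Genes of the major antenna LHCII gave most of the light-harvesting transcripts. The 13 IDs placed at Cab-1, Cab-3, CAB4, CAB5 and CAB13 summed to 5476 and 3133 TPM in 156OE and to 4258 and 4952 TPM in MT. Cab-3 and Cab-1 are tandem clusters of near-identical LHCII genes on chromosomes 3 and 2, and reads that match several copies have to be divided between them by the quantifier. Estimated counts lay more than 1e-09 from a whole number in 29 and 21 of the 30 genes in 156OE and in 27 and 29 in MT; over all 33976 genes, read or not, 14542 and 4593 did so in 156OE and 11219 and 13287 in MT. Values of single near-identical copies are less certain than sums over a cluster.

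Solyc03g005760 of the Cab-3 locus had 2017 and 1517 TPM in 156OE and 1596 and 1841 TPM in MT. On scaled values both 156OE libraries were above MT, at 1.23 and 1.08 times the MT mean, and the log2 change was 0.20 ± 0.15 (standard error, here and below; edgeR adjusted p = 0.627). It made 25.6% and 33.2% of the light-harvesting TPM in 156OE and 25.4% and 26.0% in MT. Its neighbour Solyc03g005780 was far lower, at 66.2 and 25.9 TPM in 156OE and at 49.0 and 65.9 TPM in MT.

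The 8 IDs of the Cab-1 cluster summed to 2558 and 1280 TPM in 156OE and to 1904 and 2228 TPM in MT. The highest of them, Solyc02g070940, had 1222 and 586 TPM in 156OE and 1038 and 1250 TPM in MT, with replicate 2 below both MT libraries; replicate 1 lay inside the MT range in TPM and just above it on scaled values, at 1.11 times the MT mean where MT replicate 2 stood at 1.08. The second, Solyc02g071030, had 963 and 561 TPM in 156OE and 650 and 723 TPM in MT. In TPM, Solyc02g071010 and Solyc02g070970 showed the same order of libraries at lower levels, with 250 and 95.5 TPM for the first in 156OE and 168 and 196 TPM in MT, and 57.8 and 11.1 TPM for the second in 156OE and 35.0 and 35.6 TPM in MT. On scaled values 156OE replicate 2 lay inside the MT range for Solyc02g071030 and below it for Solyc02g071010 and Solyc02g070970.

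The 4 weakest Cab-1 copies had the largest log2 changes of all light-harvesting genes, and none passed. Solyc02g071000 had 6.92 and 5.07 TPM in 156OE and 1.18 and 1.70 TPM in MT, a log2 change of 2.23 with a standard error of 0.42 (edgeR adjusted p = 0.264). Behind these values stood 35.4 and 5.36 estimated reads in 156OE and 7.83 and 9.20 in MT, and the 5 whole reads of 156OE replicate 2 carry an exact 95% Poisson interval of 1.62 to 11.7, for counting error alone. Solyc02g070980 had 33.0 and 15.0 TPM in 156OE and 7.07 and 12.7 TPM in MT, a log2 change of 1.51 ± 0.42 (edgeR adjusted p = 0.357). In these 2 copies both 156OE libraries were above MT.

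Solyc02g070990 had 11.4 and 1.66 TPM in 156OE and 2.47 and 1.87 TPM in MT, and Solyc02g070950 had 14.2 and 4.80 TPM in 156OE and 3.12 and 6.12 TPM in MT. Their groups overlapped, and their log2 changes were 1.997 ± 0.66 and 1.34 ± 0.54 (edgeR adjusted p = 0.393 and 0.446). Chosen after their values were seen, the 4 weak copies together made 65.6 and 26.6 TPM in 156OE and 13.8 and 22.4 TPM in MT, a small part of the cluster. With each cluster summed to 1 row before the fit, the log2 change was 0.04 ± 0.28 for Cab-1 and 0.18 ± 0.16 for Cab-3.

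CAB4 and CAB5 encode a second type of LHCII protein and CAB13 the third. CAB4 (Solyc07g047850) had 506 and 191 TPM in 156OE and 453 and 517 TPM in MT, a log2 change of -0.33 ± 0.38 (edgeR adjusted p = 0.753). CAB5 (Solyc12g006140) had 20.9 and 3.39 TPM in 156OE and 20.998 and 22.8 TPM in MT, the lowest ratio of any member in 156OE replicate 2, at 0.189 of the MT mean on scaled values. That library held 5 reads of it, with an exact 95% Poisson interval of 1.62 to 11.7 reads, and the log2 change was -0.51 ± 0.56 (edgeR adjusted p = 0.739). CAB13 (Solyc12g011450) had 309 and 115 TPM in 156OE and 235 and 278 TPM in MT, and its nearby ID Solyc12g011280, which has no symbol here, had 47.0 and 16.5 TPM in 156OE and 46.1 and 44.7 TPM in MT. On scaled values all 4 were below the MT range in 156OE replicate 2 and not in replicate 1.

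The minor antenna genes of photosystem II were also split between the 156OE libraries. CAB9 (Solyc06g063370), which encodes CP26, had 370 and 219 TPM in 156OE and 306 and 298 TPM in MT, a log2 change of 0.13 ± 0.20 (edgeR adjusted p = 0.838). The pair of IDs at the CP24 locus on chromosome 1 summed to 376 and 218 TPM in 156OE and to 360 and 356 TPM in MT. Of the pair, Solyc01g105050 was the higher in every library, at 233 and 139 TPM in 156OE and at 229.0 and 229.5 TPM in MT. In each of these the 156OE libraries lay on either side of MT.

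The 5 photosystem I antenna genes CAB6A, CAB7, CAB-8, CAB11 and CAB12 summed to 811 and 473 TPM in 156OE and to 644 and 711 TPM in MT. CAB7 (Solyc10g006230), the highest, had 289 and 204 TPM in 156OE and 248 and 273 TPM in MT; its 95% interval of the log2 change, -0.27 to 0.45, is among the narrow ones. CAB6A (Solyc05g056050) had 111 and 71.9 TPM in 156OE and 76.0 and 84.0 TPM in MT, and on scaled values both 156OE libraries were above MT, at 1.46 and 1.10 times the MT mean. CAB11 (Solyc03g115900) and CAB12 (Solyc06g069730), known as genes for the fourth polypeptide of this antenna, differed in level: CAB11 had 211 and 93.6 TPM in 156OE and 151 and 171 TPM in MT, and CAB12 18.7 and 5.01 TPM in 156OE and 16.2 and 17.1 TPM in MT. CAB12 was read 7 times in 156OE replicate 2.

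The remaining light-harvesting IDs have no symbol here. Solyc09g014520 had 312 and 207 TPM in 156OE and 289 and 273 TPM in MT, with a log2 change of 0.05 ± 0.16 (edgeR adjusted p = 0.943). Solyc07g063600 was above MT in both 156OE libraries on scaled values, at 1.46 and 1.31 times the MT mean, with a log2 change of 0.48 ± 0.20 (edgeR adjusted p = 0.449). The pair on chromosome 8 summed to 360 and 201 TPM in 156OE and to 305 and 314 TPM in MT. Its IDs, at lengths of 276 and 297, are the shortest of the members, and TPM is scaled by length. Not scaled by length, the pair had 45.5 and 27.9 CPM in 156OE and 39.6 and 38.0 CPM in MT, where the CP24 pair had 344 and 205 CPM in 156OE. Solyc06g069000 was near the limit of detection, with 13 and 3 reads in 156OE and 13 and 5 reads in MT.

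Of the 3 Rubisco small subunit genes, RBCS3 and Solyc03g034220 were above both MT libraries in 156OE replicate 2 on scaled values, and rbcS1 was below both, as most light-harvesting genes were. RBCS3 (Solyc02g085950) had 354 and 693 TPM in 156OE and 213 and 209 TPM in MT. Both 156OE libraries were above MT and replicate 2 was the highest, at 1.75 and 4.00 times the MT mean on scaled values, behind which stood 795 reads in replicate 2. The log2 change was 1.51 ± 0.39 with a 95% interval of 0.51 to 2.51, and it did not pass over all genes (edgeR adjusted p = 0.34). The table used for names places a second small subunit gene, RBCS4, beside RBCS3, so the ID could stand for either.

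Solyc03g034220, the most abundant small subunit ID, had 1140 and 951 TPM in 156OE and 858 and 905 TPM in MT. On scaled values the 156OE libraries were close to each other, at 1.35 and 1.32 times the MT mean, and both above MT. Its log2 change of 0.42 ± 0.12 had the smallest standard error of the 30 genes (95% interval 0.11 to 0.72; edgeR adjusted p = 0.368, DESeq2 adjusted p = 0.0896). rbcS1 (Solyc02g063150) had 182 and 87.0 TPM in 156OE and 111 and 118 TPM in MT, with replicate 1 above both MT libraries and replicate 2 below both, and a log2 change of 0.40 ± 0.27 (edgeR adjusted p = 0.594).

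Shares of small subunit transcripts cover only the 3 listed IDs. Estimated counts of RBCS3 were not whole, at 1969.66 and 794.925 in 156OE, so its share may depend on how reads were divided between copies. The make-up of the transcripts of the 3 genes differed mostly in 156OE replicate 2. RBCS3 made 21.1% and 40.02% of their TPM in 156OE and 18.0% and 17.0% in MT, while Solyc03g034220 made 68.0% and 55.0% in 156OE and 72.6% and 73.5% in MT. Relative to the light-harvesting sum, small subunit TPM stood at 0.212 and 0.378 in 156OE and at 0.188 and 0.174 in MT. That ratio was higher in both 156OE libraries, by little in replicate 1, and its difference was not tested.

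**Figure D4:**
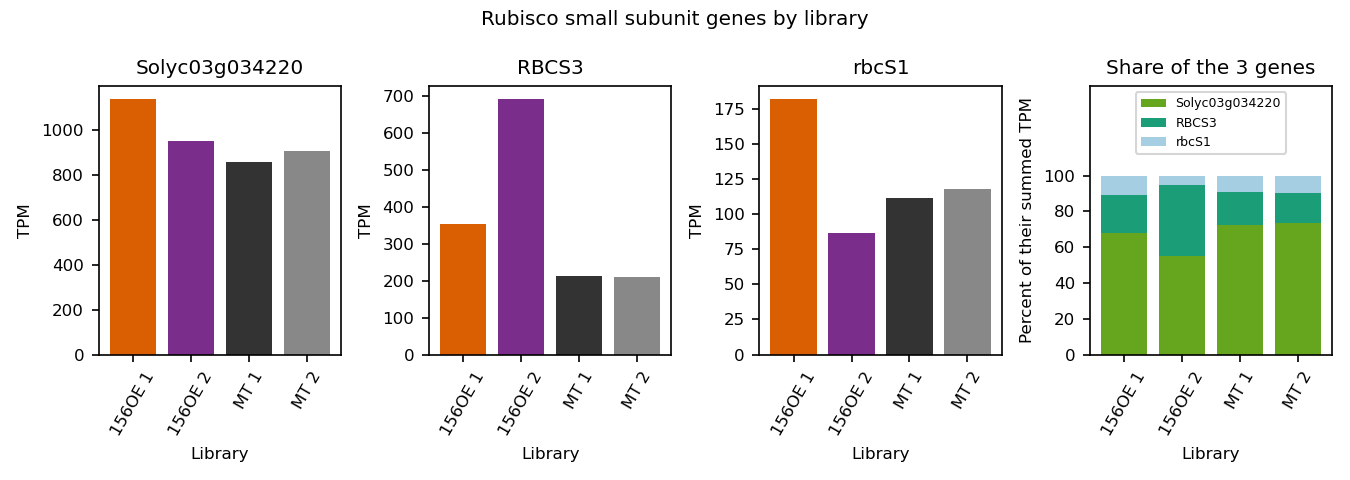
TPM of the 3 Rubisco small subunit genes in the 4 libraries (bars, axes starting at 0) and the share of each in their summed TPM (right, percent). RBCS3 reaches 693 TPM and 40.02% in 156OE replicate 2, against 213 and 209 TPM in the MT libraries.

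With a single 156OE library in the fit, many of the genes passed, in different directions. Without 156OE replicate 2, edgeR called 13 of the 30 higher and 0 lower, against backgrounds of 3.45% and 2.28%. The 13 were 7 of the 8 Cab-1 IDs, CAB6A, CAB9, CAB11 and all 3 small subunit genes. Without 156OE replicate 1, 2 were called higher and 7 lower in the same test, against backgrounds of 8.16% and 2.48%. The 7 lower were Solyc02g070940, Solyc02g070970 and Solyc02g071010 of Cab-1, CAB4, CAB5, CAB13 and Solyc12g011280, and the 2 higher were RBCS3 and Solyc03g034220. These fits share the MT libraries, which alone give their spread, and assume that the lone 156OE library varies like MT. Log2 changes were 0.81 and 1.998 for RBCS3 and 0.43 and 0.40 for Solyc03g034220 without replicate 2 and without replicate 1.

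Other photosynthesis genes, from lists recalled by ID and kept where the symbol passed the name check, gave 0 calls of 14 in edgeR. Of 6 genes of the photosystems and electron transport, 1 was lower at an unadjusted p under 0.05, as were 5.11% of all genes tested, where 6.28% were higher. The other 5 had log2 changes of 0.20 to 0.32 and none passed. The one that was lower was PSBS (Solyc06g060340), which serves the dissipation of excess light energy. It had 130.5 and 97.6 TPM in 156OE and 171.4 and 185.1 TPM in MT, a log2 change of -0.47 ± 0.12 (edgeR adjusted p = 0.34). Its 156OE libraries were both below MT. The photosystem I subunit gene psaD (Solyc06g054260) had 599 and 454 TPM in 156OE and 490 and 477 TPM in MT, and the plastocyanin gene PETE (Solyc04g082010) 520 and 374 TPM in 156OE and 424 and 369 TPM in MT. On scaled values, unlike in TPM, both 156OE libraries were above MT for psaD and PETE. The median scaled ratio of the 6 genes was 1.28 in 156OE replicate 1 and 1.10 in replicate 2.

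Of 3 Calvin cycle genes, SBPASE (Solyc05g052600), sedoheptulose-bisphosphatase, had the lowest p, at 33.3 and 27.9 TPM in 156OE and at 25.04 and 28.9 TPM in MT (log2 change 0.36 ± 0.13, edgeR adjusted p = 0.42). The aldolase genes FBA2 (Solyc02g062340) and FBA1 (Solyc01g110360) had log2 changes of -0.23 ± 0.11 and 0.10 ± 0.22. On scaled values both 156OE libraries were above MT for SBPASE and below it for FBA2, and they lay on either side of it for FBA1. Of 5 genes of chlorophyll synthesis and greening, the protochlorophyllide reductase gene POR (Solyc10g006900) had 45.0 and 31.3 TPM in 156OE and 31.6 and 34.9 TPM in MT (log2 change 0.39 ± 0.15, edgeR adjusted p = 0.433). After scaling, both 156OE libraries were above MT for POR. HY5 (Solyc08g061130), a light-signalling bZIP factor, had 15.5 and 11.8 TPM in 156OE and 19.3 and 23.3 TPM in MT, with both 156OE libraries below MT (log2 change -0.45 ± 0.21, edgeR adjusted p = 0.476). GLK2 (Solyc10g008160), a chloroplast development regulator, had 3.04 and 3.07 TPM in 156OE and 1.97 and 2.52 TPM in MT on 24 and 5 reads in 156OE and 20 and 21 in MT.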

How the data were processed

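RNA sequencing of 2 156OE and 2 MT libraries was analysed. The deposited tables are Salmon transcript quantifications; Trimmomatic, HISAT2, Picard, SAMtools and Salmon are named, per the submitters' processing notes, with no versions, and no source used here states the build or annotation. Estimated counts were deposited by the authors unnormalized and were rounded here; TPM were deposited by the authors as length-scaled abundances, and lengths came with them.

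Genes were tested with edgeR 4.0.16 (R 4.3.3; TMM, filterByExpr, two-sided quasi-likelihood F test, Benjamini-Hochberg adjustment over 18385 genes at 0.05, genotype as the only term). The code was first run on simulated counts with a fixed spread and no differing library. That run cannot show how well changes are found in these libraries. Standard errors are the unshrunk log2 change over the square root of F. DESeq2 1.42.0 and limma 3.58.1 were alternatives, with other scalings, filters, blocks and leaving out each library.

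The genes and lists were chosen with earlier results of these data known. Symbols were recalled and kept if the RefSeq table (SLM_r2.1) holds them on the same chromosome within 0.03 of the ID's relative place; the small subunit ID Solyc03g034220 failed this check, at 0.0371, and neighbouring copies cannot be told apart by it. Values per library were given for small subunit genes, the 8 most abundant light-harvesting genes and the 4 largest changes in each direction and the 4 lowest p; other members named were chosen after their values were seen.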

Additional observations from a re-analysis of the deposited data

How the results depend on the processing

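No member passed in any fit with both 156OE libraries: other scalings, filters, DESeq2, limma, effective-length offset, replicate block, crossed replicate block (added after seeing the data, since same-numbered replicates deviated oppositely, r = -0.259) or summed clusters all gave 0. The blocks also took the count over all genes to 0, as did limma with either pseudocount; it was 206 in DESeq2 and 85 with no filter, against 1. Leaving out single libraries gave 0 to 13 members, 0 to 1998 genes overall and 0 to 1 other photosynthesis gene. The median log2 change of the members ran from -0.16 to 0.35 when single libraries were left out, and was -0.12 with limma at either pseudocount and 0.04 to 0.12 in the other fits. The 156OE over MT ratio of small subunit sums was 1.41 in TPM and 1.48 in CPM. Among 17 named members, 7 of 177 values under settings other than leaving out a library changed sign, none past the threshold: Solyc09g014520 at -0.028 with library size only, and with limma at pseudocounts of 1 and 0.1 Solyc09g014520 at -0.14 in both, CAB9 (Solyc06g063370) at -0.085 in both and CAB7 (Solyc10g006230) at -0.10 in both. Leaving out single libraries changed the sign of 10 values, with log2 changes of -0.11 to 0.73 for rbcS1 (Solyc02g063150), -0.68 to 0.16 for Solyc02g070940, -0.0044 to 0.55 for Solyc02g071030, -0.18 to 0.36 for CAB9, -1.06 to 0.13 for CAB4 (Solyc07g047850), -0.15 to 0.22 for Solyc09g014520, -0.065 to 0.22 for CAB7, -1.17 to 0.11 for Solyc12g011280 and -0.87 to 0.34 for CAB13 (Solyc12g011450). The cause was not tested. Counting error is large for the members under 20 reads in 156OE replicate 2. Of these, Solyc06g069000 was under 20 reads in every library. The part of depth was not tested.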
